A study of Mus musculus with 7 samples.

Results

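The 27 genes of cholesterol and fatty acid synthesis encode the enzymes that build cholesterol from acetyl-CoA, the regulators Srebf1, Srebf2 and Insig1, enzymes of fatty acid synthesis and the sterol carrier Stard4. They were chosen by gene symbol in the array platform's annotation, on probe sets (groups of probes read as 1 value) that carry a single symbol. Of the 27, 25 were measured, each by 1 probe set, among 22180 genes in all. Idi1, an isomerase of the mevalonate pathway, and Scd2, a fatty acid desaturase, lie only on probe sets with several symbols and were not analysed here.

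The study compared induced pluripotent stem cells (iPSC, made by reprogramming body cells) that lack Nanog, a homeodomain transcription factor of pluripotent cells, with wild-type (WT) pluripotent cells. RNA of 7 samples of mouse cells, all of strain 129, was measured on 1 Affymetrix array each: 2 with Nanog knockout (KO) iPSC, 2 with WT iPSC, 1 with WT embryonic stem cells (ESC), and 1 each with KO and WT embryonic fibroblasts (MEF). Replicates of iPSC are labelled biological, without saying whether they are separate lines, so p-values measure only the spread between these samples. The labels list ESC medium, 2i/LIF medium (a pair of kinase inhibitors with the cytokine LIF) and MEF medium without assigning them to samples, and no ages, Nanog allele or reprogramming factors are given in the sources used here. Values are log2 of the deposited probe set intensity. They compare 1 gene between arrays and do not rank genes by abundance. Tests were made per gene with limma, a linear model that shares the estimate of spread across genes. A member counts as changed where its p, adjusted by Benjamini-Hochberg over all 22180 genes, is under 0.05.

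As background, cholesterol is made from acetyl-CoA through mevalonate, farnesyl diphosphate, squalene and lanosterol. The transcription factors SREBP1 and SREBP2, products of Srebf1 and Srebf2, are held in the endoplasmic reticulum by Insig proteins while sterols are plentiful. When sterols run low they are carried to the Golgi, cleaved and released to the nucleus, where they bind sterol regulatory elements, often beside CCAAT boxes bound by NF-Y. SREBP2 acts mainly on cholesterol genes, and SREBP1 on fatty acid genes such as Fasn and Scd1. Insig1 is itself an SREBP target.

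Nanog read 12.73 to 12.84 on the 3 WT pluripotent arrays, 7.44 and 7.50 on the KO iPSC arrays and 6.42 and 6.53 on the MEF arrays. On each array a background level was taken as the 95th percentile over 1390 receptor genes of the olfactory and vomeronasal families, which are normally silent in these cells. It lay between 6.30 and 6.50, and 0 of the 25 members fell below it on any array. Of 20 fibroblast markers, 1 and 0 lay below background on the WT and KO MEF arrays, 3 on the ESC array, 2 and 6 on WT iPSC arrays 1 and 2, and 6 on both KO iPSC arrays. Their summed intensity was 68131 and 92579 in MEF, 15033 in ESC, 24372 and 10830 in WT iPSC 1 and 2, and 11916 and 11905 in KO iPSC. Of 16 pluripotency markers, 12 and 11 lay below background in WT and KO MEF and 0 or 1 on each pluripotent array. Of 13 primitive endoderm markers, 0 to 2 lay below background on each array, and their summed intensity was 4329 to 6078 on the pluripotent arrays against 12597 and 14239 in MEF. In such bulk samples, fewer cells of a type and less RNA per cell cannot be told apart. Nsdhl and Ebp lie on the X chromosome, whose 445 genes above background had a median KO minus WT pluripotent difference of -0.21, against medians of -0.05 to 0.02 on the autosomes.

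**Figure D1:**
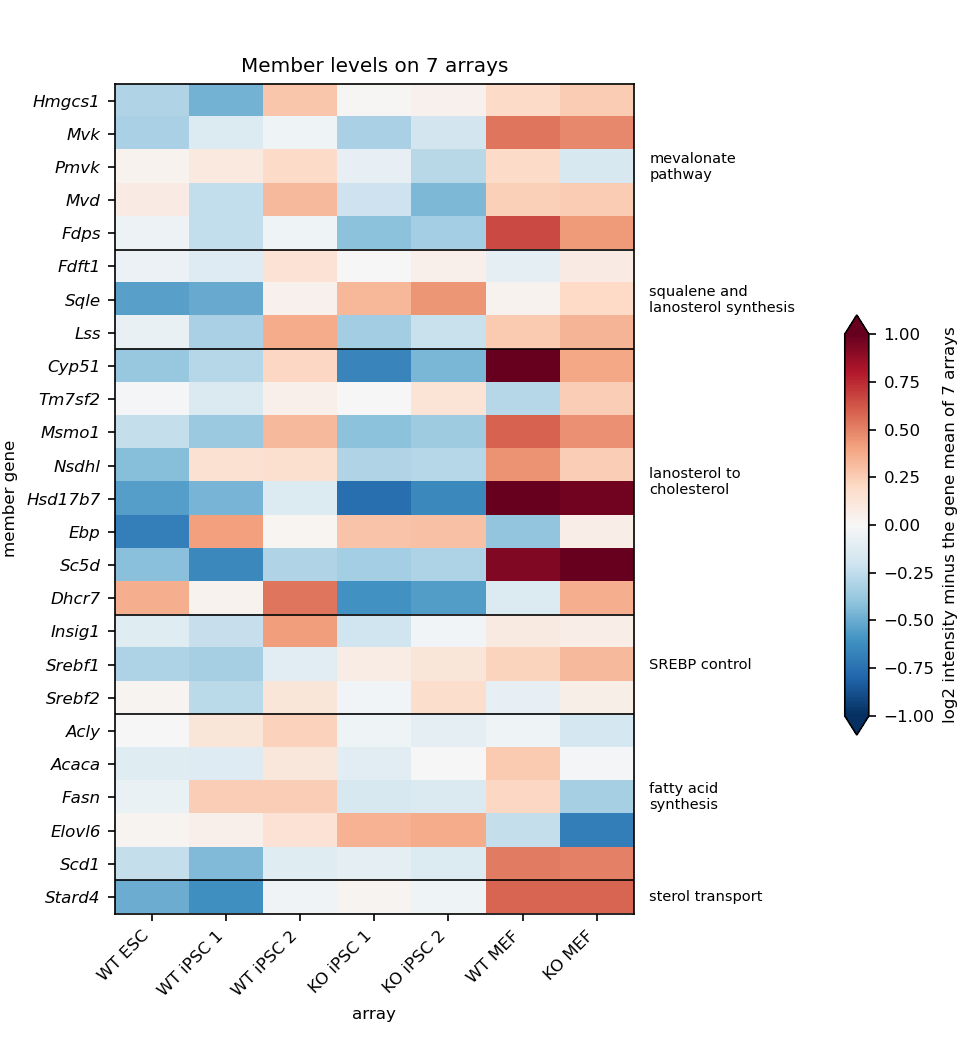
Levels of the 25 measured members (rows, grouped by role) on the 7 arrays (columns), as log2 intensity minus the gene's mean over the 7 arrays; red is above and blue below that mean, and the colour scale ends at -1 and 1. The MEF columns are red for most sterol enzymes, Dhcr7 is blue in both KO iPSC columns and not on the WT pluripotent arrays, and WT iPSC 2 is redder than WT iPSC 1 in all rows but those of Ebp and Fasn.

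Promoter sequences were read for the members because SREBP and NF-Y act through short motifs near the start of transcription. Windows of 300 bases (250 before the start and 50 after it) came from a promoter table taken from RefSeq for GRCm38.p6. Of the 25 measured members, 20 were searched, in 25 windows. Fdft1, Fdps, Scd1, Sqle and Stard4 were left out of the search. The member shares below do not cover these genes, and their difference from the shares of all windows was not tested. Both strands were searched for the sterol element TCACNCCAC, for the looser form TCACNNCAC, which includes it, and for the CCAAT box. That box was found in 19 of 25 member windows (76.0%), which belong to 18 of the 20 genes, against 37.4% of all 32851 windows. Acaca and Elovl6 had none. TCACNCCAC was found in 1 member window (4.0%, against 1.24% of all), that of Hmgcs1, and TCACNNCAC in 4 (16.0%, against 3.77%), those of Hmgcs1, Dhcr7, Hsd17b7 and Msmo1. A match is a description of the letters and does not show that a factor binds there. The 250 bases before the start are shown for Hmgcs1, which carries both kinds of motif, and for Nsdhl and Fasn, which changed between KO and WT iPSC; capitals mark the motif matches, where ATTGG is CCAAT on the other strand. The windows are Hmgcs1 at chr13:119690101-119690350 on the plus strand, Nsdhl at chrX:72918271-72918520 on the plus strand and Fasn at chr11:120824548-120824797 on the minus strand.
Hmgcs1: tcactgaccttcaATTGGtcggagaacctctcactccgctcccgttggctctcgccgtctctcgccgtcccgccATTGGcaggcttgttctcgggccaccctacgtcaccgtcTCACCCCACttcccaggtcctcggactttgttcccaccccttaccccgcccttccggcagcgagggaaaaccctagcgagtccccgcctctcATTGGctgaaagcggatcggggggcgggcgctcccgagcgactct
Nsdhl: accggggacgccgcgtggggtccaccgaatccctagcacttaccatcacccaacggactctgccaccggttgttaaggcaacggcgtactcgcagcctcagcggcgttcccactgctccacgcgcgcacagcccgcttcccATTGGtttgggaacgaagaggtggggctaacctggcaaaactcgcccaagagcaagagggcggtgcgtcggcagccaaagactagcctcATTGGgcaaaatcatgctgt
Fasn: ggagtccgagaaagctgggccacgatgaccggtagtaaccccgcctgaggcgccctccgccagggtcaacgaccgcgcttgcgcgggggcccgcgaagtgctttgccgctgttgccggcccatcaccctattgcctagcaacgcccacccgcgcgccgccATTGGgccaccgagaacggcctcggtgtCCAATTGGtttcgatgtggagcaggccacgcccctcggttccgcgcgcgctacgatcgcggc
The sterol element of Hmgcs1 begins 137 bases before the start, between CCAAT boxes that begin 176 and 45 bases before it. Fasn has CCAAT on both strands in 1 overlapping stretch that begins 62 bases before its start.

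Stretches of 30 bases around the looser match are shown for Dhcr7, the member that fell in KO iPSC against both WT references, and for Hsd17b7 and Msmo1, which differed between iPSC and MEF. They lie at chr7:143823259-143823288 (plus strand), chr1:169969303-169969332 (minus strand) and chr8:64733651-64733680 (minus strand), and the match begins 130, 117 and 92 bases before the start. The table gives Dhcr7 3 starts in 3 windows: this match lies in 1 of them, and its CCAAT boxes lie in another, at chr7:143829964-143830263.
Dhcr7: ggaaaagggcTCACTTCACcttatagctca
Hsd17b7: tcggcctatcTCACCTCACccggtctgggc
Msmo1: cacggaCCAATCACTGCACggcgaaggcag
In Msmo1 the match overlaps a CCAAT box by its first base.

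KO iPSC were compared first with the 3 WT pluripotent arrays, which is the comparison the series names. Dhcr7, the last enzyme of the pathway, which reduces 7-dehydrocholesterol to cholesterol, was 1.86-fold lower in KO iPSC. It was the only member that changed: 1 of 25 fell and 0 rose, while across all genes 15.7% changed (8.81% fell and 6.89% rose). Members lie above background, and among the 12271 genes above background on every array 23.0% changed. The members' differences ran from -0.90 to 0.72 with a median of -0.09, 14 below and 11 above zero, against a median of 0.03 over all genes. In the same comparison 4 of the 20 fibroblast markers fell and 0 rose, 1 of 16 pluripotency markers rose and 2 fell, and 1 of 13 primitive endoderm markers rose and 2 fell; their part in the members' differences was not tested.

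Dhcr7 read 8.99 and 9.04 in KO iPSC, 9.96 in ESC, and 9.64 and 10.14 in WT iPSC 1 and 2. Both KO arrays lay below every WT array, and the gap to the lowest of them exceeded the spread among the 3. The means were 9.02 ± 0.03 (SD, n = 2) and 9.91 ± 0.25 (SD, n = 3), a difference of -0.90 (SE 0.155, limma adjusted p = 0.0166). Without KO iPSC 1 or KO iPSC 2 the difference was -0.87 or -0.92, with adjusted p = 0.149 or 0.131, which no longer passes. With the KO arrays counted as 1 sample it was 0.147. The number of genes called over the whole table fell likewise, from 3483 to 341 and 403 without a KO array and to 365 with them counted as 1.

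The early, mevalonate part of the pathway held 0 changed members of 5. Hmgcs1, which makes HMG-CoA and was shown above with its sterol element, read 11.10 and 11.13 in KO iPSC, within the WT range of 10.61 (WT iPSC 1), 10.79 (ESC) and 11.37 (WT iPSC 2). Its difference was 0.19 (SE 0.23, limma adjusted p = 0.608). The mevalonate kinase Mvk (-0.09), the phosphomevalonate kinase Pmvk (-0.28), the decarboxylase Mvd (-0.38) and the farnesyl diphosphate synthase Fdps (-0.26) had adjusted p of 0.119 to 0.642.

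Squalene epoxidase, Sqle, which makes the first oxygenated step toward sterols, had the highest positive difference of the members. It read 10.44 and 10.55 in KO iPSC against 9.57 in ESC, 9.60 in WT iPSC 1 and 10.15 in WT iPSC 2. The groups did not overlap, and the WT iPSC 2 array lay nearest to KO. The difference was 0.72 (SE 0.19, limma adjusted p = 0.0595), 1.65-fold, which did not pass. It passed without WT iPSC 2 (0.91, adjusted p = 0.0128), after quantile normalization (0.0478) and with trended, robust moderation (0.0493). The other enzymes of this step did not pass either. Fdft1, squalene synthase, read 11.95 and 12.00 in KO iPSC, inside the WT values of 11.82, 11.89 and 12.10 (difference 0.04, adjusted p = 0.849). Lss, lanosterol synthase, differed by -0.28 (adjusted p = 0.412).

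In the steps from lanosterol to cholesterol, Dhcr7 was the only member of 8 that changed. Cyp51, the lanosterol demethylase, read 8.82 and 9.02 in KO iPSC against 9.10 in ESC, 9.19 in WT iPSC 1 and 9.69 in WT iPSC 2. All KO values lay below all WT values, but by less than the WT arrays differed among themselves. The difference was -0.41 (SE 0.19, limma adjusted p = 0.214). Hsd17b7, a sterol 3-keto reductase, also lay below all WT arrays (-0.32, adjusted p = 0.196). The reductase Tm7sf2 (0.10), the methyl oxidase Msmo1 (-0.29), the dehydrogenase Nsdhl (-0.25), the isomerase Ebp (0.38) and the desaturase Sc5d (0.13) overlapped WT, with adjusted p of 0.408 to 0.515.

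Neither SREBP gene nor Insig1 passed the test. Srebf1 read 8.64 and 8.68 in KO iPSC against 8.25 in ESC, 8.23 in WT iPSC 1 and 8.45 in WT iPSC 2, a difference of 0.35 (SE 0.0996, limma adjusted p = 0.0704) without overlap. Srebf2 read 11.53 and 11.73, within the WT values of 11.29 to 11.68 but for the higher KO array (0.11, adjusted p = 0.637). Insig1 read 11.00 and 11.17 against 11.08 in ESC, 10.97 in WT iPSC 1 and 11.61 in WT iPSC 2 (-0.14, adjusted p = 0.696).

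Of the 5 fatty acid members and the sterol carrier Stard4, 0 changed in this comparison. Fasn, the fatty acid synthase, read 11.74 and 11.75 in KO iPSC against 11.83 in ESC and 12.15 on both WT iPSC arrays, a difference of -0.30 (SE 0.12, limma adjusted p = 0.167). Scd1, a stearoyl-CoA desaturase, read 11.34 and 11.29 against 11.19, 10.99 and 11.31 in ESC, WT iPSC 1 and WT iPSC 2 (0.15, adjusted p = 0.426). Elovl6, which lengthens fatty acids, read 12.75 and 12.77 in KO iPSC, above 12.43 to 12.55 in WT, by 0.29 (SE 0.08, adjusted p = 0.0668). Acly, which supplies cytosolic acetyl-CoA, differed by -0.18, Acaca, acetyl-CoA carboxylase, by -0.0025, and Stard4 by 0.37, with adjusted p of 0.225 to 0.991. In all, both KO arrays lay above all 3 WT arrays in 3 of the 25 members (Sqle, Srebf1, Elovl6) and below them in 7 (Pmvk, Fdps, Cyp51, Hsd17b7, Dhcr7, Fasn, Acly); over all genes these shares were 28.4% and 23.2%.

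**Figure D2:**
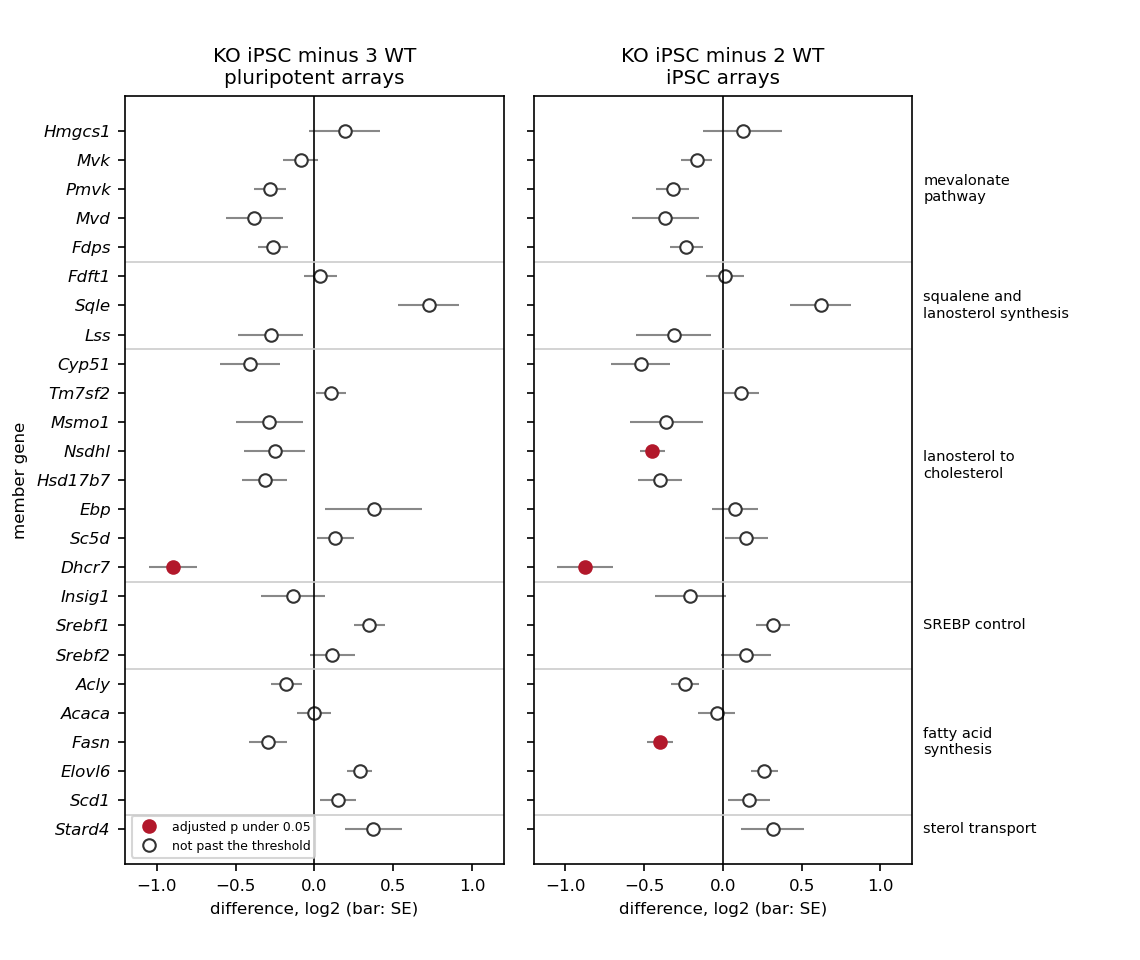
Difference on the log2 scale (x axis, bars are the SE) of KO iPSC (n = 2) from the 3 WT pluripotent arrays, left, and from the 2 WT iPSC arrays, right, for each member (y axis); filled points passed a limma adjusted p of 0.05. Dhcr7 lies farthest to the left in both panels, at -0.90 and -0.87, and Sqle farthest to the right, at 0.72 and 0.62.

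KO iPSC were also compared with the 2 WT iPSC arrays, without ESC. Dhcr7, Nsdhl and Fasn fell, 3 of 25 members, and 0 rose; over all genes 16.5% changed (9.55% fell and 6.93% rose). This comparison shares 4 arrays with the first, so the values stand beside each other and are no second measurement. The members' median difference was -0.17, against 0.03 over all genes. Dhcr7 differed by -0.87 (SE 0.18, limma adjusted p = 0.0328), 1.83-fold lower. In this comparison 1 of 20 fibroblast markers fell and 0 rose, with a median difference of -0.94 and 17 of 20 below zero. Of 16 pluripotency markers 3 rose and 3 fell, and of 13 primitive endoderm markers 1 rose and 3 fell. Their part in the members' differences was not tested.

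Nsdhl, the sterol dehydrogenase that removes a methyl carbon as carbon dioxide, read 10.72 and 10.73 in KO iPSC and 11.17 and 11.18 in WT iPSC. Each pair was tight and the pairs stood apart, by -0.45 (SE 0.08, limma adjusted p = 0.025). The ESC array, at 10.59, lay below both KO arrays, so the groups overlapped in the first comparison. Nsdhl is X-linked, and the 445 X-linked genes above background had a median KO minus WT iPSC difference of -0.32, with 73.7% below zero, against medians of -0.04 to 0.03 on the autosomes. The part of this X-wide shift in the difference of Nsdhl was not tested.

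Fasn fell by 0.40 on the log2 scale in KO iPSC relative to WT iPSC (SE 0.08, limma adjusted p = 0.0337), 1.32-fold, with ESC nearer to KO iPSC. With each array centred on its median, Fasn was at -0.35 with adjusted p = 0.0575. Without KO iPSC 1 or KO iPSC 2, 0 of the 3 genes passed. Without WT iPSC 1, 9 members fell: Cyp51, Hsd17b7, Insig1, Lss, Msmo1 and Mvd in addition to these 3. Without WT iPSC 2, the same 3 fell and 4 rose: Hmgcs1, Sqle, Srebf1 and Stard4. In both fits the lone WT array is assumed to vary like the KO pair.

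The members differed widely between the 2 WT iPSC arrays. In 23 of 25 members WT iPSC 2 lay above WT iPSC 1, with a median difference of 0.32, whereas 51.1% of all genes did so, with a median of 0.01. The difference reached 0.5 or more in 7 of 25 members (28.0%), against 2.87% of all genes. These were Hmgcs1 (0.75), Lss (0.70), Msmo1 (0.69), Insig1 (0.64), Stard4 (0.58), Mvd (0.57) and Sqle (0.55). Between 2 arrays there is no test, and the members share 2 RNA samples. The shares of all genes include genes below background, where no member lies, and shares among genes above background were not taken here.

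The differences between WT iPSC arrays covered the steps from HMG-CoA synthesis to the last reductase, the Insig1 feedback gene and the sterol carrier. By role, 5 of 5 mevalonate members (median 0.20), 3 of 3 of squalene and lanosterol synthesis (0.55), 7 of 8 from lanosterol to cholesterol (0.34), 3 of 3 of SREBP control (0.39) and 4 of 5 fatty acid members (0.11) were higher on WT iPSC 2. In the same order 2, 2, 1, 1 and 0 members reached 0.5, and Stard4 was the other. Fasn was level (12.15 on both arrays), and Ebp, the sterol isomerase, went the other way by -0.39. The ESC array lay below WT iPSC 2 in 25 of 25 members (median -0.24). It lay above WT iPSC 1 in 15 of 25 (median 0.07). Over all genes it lay above WT iPSC 2 in 47.0% and above WT iPSC 1 in 47.2%. WT iPSC 2 was the highest WT pluripotent array in 23 of 25 members, and the matching share of all genes was not taken.

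Fibroblast markers moved the opposite way: 20 of 20 were lower on WT iPSC 2 than on WT iPSC 1, by a median of -1.66, and 16 by 0.5 or more. Their part in the difference of the members was not tested. The KO iPSC arrays differed by a median of 0.05 over the members. KO iPSC 2 lay above KO iPSC 1 in 20 of 25 members (80.0%), against 52.6% of all genes. A difference of 0.5 was reached by 0 of 25 members, against 0.31% of all genes upward and 0.36% downward. The WT range over 3 arrays was larger than the KO range over 2 in 24 of 25 members (medians 0.389 and 0.0677). Over all genes the SD of the difference was 0.32 between the WT iPSC arrays and 0.15 between the KO iPSC arrays.

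**Figure D3:**
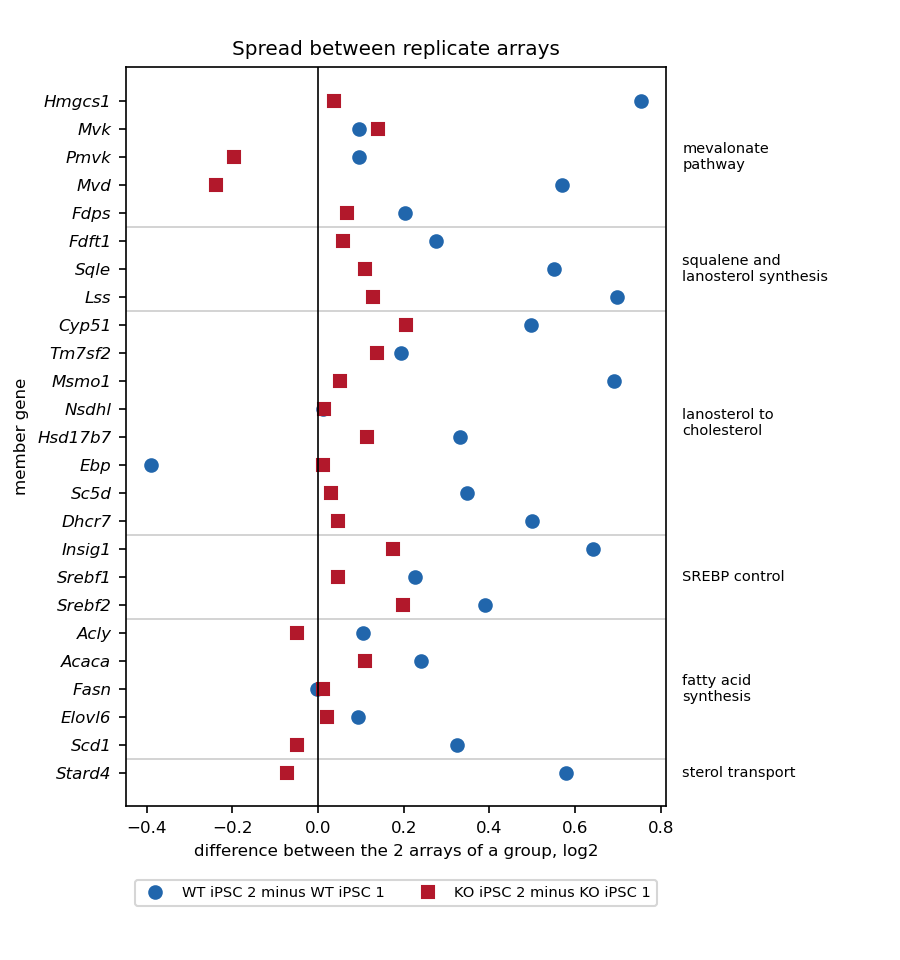
Difference on the log2 scale between the 2 arrays of each iPSC group (replicate 2 minus replicate 1, x axis) for each member (y axis); circles are WT and squares are Nanog KO. The WT points lie to the right of zero in 23 of 25 members, up to 0.75 for Hmgcs1, while all KO points lie between -0.24 and 0.20.

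ESC, with 1 array, were set against the 2 WT iPSC arrays, and the spread in this test comes from the WT and KO iPSC pairs alone. No member passed: limma called 0 of 25 members and 0.162% of all genes. An unadjusted p under 0.05 was found for 3 members (Nsdhl, Ebp and Fasn), against 2704 of all 22180 genes. Without WT iPSC 1 the test called 3 members lower in ESC (Ebp, Hmgcs1 and Nsdhl), and without WT iPSC 2 it called 2 (Ebp and Nsdhl), with the lone WT iPSC array assumed to vary like the KO pair. Ebp read 8.97 in ESC and 10.06 and 9.67 in WT iPSC 1 and 2, a difference of -0.90 (SE 0.18, limma adjusted p = 0.167). Nsdhl read 10.59 against 11.17 and 11.18 (-0.58, SE 0.10, adjusted p = 0.14). These are the X-linked members, and X-linked genes as a whole had a median difference of -0.30 here, with 81.3% below zero. The part of that shift in the differences of Ebp and Nsdhl was not tested.

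Among the members lower in iPSC than in fibroblasts, Hsd17b7, Sc5d and Cyp51 differed most. In iPSC against MEF, with genotype as a term, 9 of 25 members were lower (Hsd17b7, Sc5d, Cyp51, Fdps, Stard4, Msmo1, Scd1, Mvk and Nsdhl) and 1, Elovl6, was higher. That is 40.0% of the members, beside 30.7% of all genes (14.7% lower and 16.0% higher). Among the 12271 genes above background on every array 44.5% differed, 2585 lower and 2870 higher. Of 53 measured genes in neighbouring parts of lipid metabolism, given below, 17 were lower and 5 higher. Both MEF arrays lay above all 5 pluripotent arrays in 10 members and below them in 1, against 19.4% and 23.0% of all genes. The members' median was -0.26. Of the markers that define these cells, 18 of 20 fibroblast markers were lower and 14 of 16 pluripotency markers higher in iPSC, and 1 of 13 primitive endoderm markers was higher and 7 lower; their part in the members' differences was not tested.

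Hsd17b7 read 10.18 in WT MEF and 9.57 in KO MEF, and 7.85 to 8.47 in iPSC. The difference was -1.77 (SE 0.13, limma adjusted p = 0.00105), 3.41-fold lower in iPSC. Sc5d, which introduces a double bond before Dhcr7 acts, read 11.09 and 11.26 in MEF and 9.52 to 9.87 in iPSC. Its difference was -1.40 (SE 0.12, adjusted p = 0.00149), 2.64-fold lower. Cyp51 read 10.68 in WT MEF, 9.87 in KO MEF and 8.82 to 9.69 in iPSC, a difference of -1.09 (SE 0.17, adjusted p = 0.00807). The remaining 6 lower members, Fdps (-0.80), Stard4 (-0.75), Msmo1 (-0.73), Scd1 (-0.71), Mvk (-0.68) and Nsdhl (-0.42), had adjusted p of 0.00348 to 0.0494. Stard4, Msmo1 and Nsdhl did not pass without KO iPSC 1, without KO iPSC 2 or with the replicate number as a block. Msmo1 also did not pass without WT iPSC 1, WT MEF or KO MEF, Nsdhl without WT iPSC 1, WT iPSC 2 or KO MEF, and Stard4 without WT MEF or after quantile normalization. Over all these alternatives adjusted p reached 0.129 for Stard4, 0.18 for Msmo1 and 0.0915 for Nsdhl.

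By role, the lower members were 5 of 8 from lanosterol to cholesterol, 2 of 5 of the mevalonate pathway, 1 of 5 fatty acid members and Stard4, while 0 of 3 of squalene and lanosterol synthesis and 0 of 3 of SREBP control differed. Elovl6 read 12.16 and 11.71 in WT and KO MEF and 12.45 to 12.77 in iPSC, 0.69 higher (SE 0.18, limma adjusted p = 0.0351). It did not pass without KO MEF, nor without any one of the 4 iPSC arrays, where the difference ran from 0.34 to 1.05 over all fits that left out 1 array and adjusted p reached 0.106. Srebf1 and Ebp had differences of -0.33 (adjusted p = 0.0752) and 0.41 (adjusted p = 0.107), and the other members had adjusted p of 0.21 to 0.956. Dhcr7 in MEF, 9.46 and 9.97, lay between KO iPSC and the highest WT iPSC array.

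**Figure D4:**
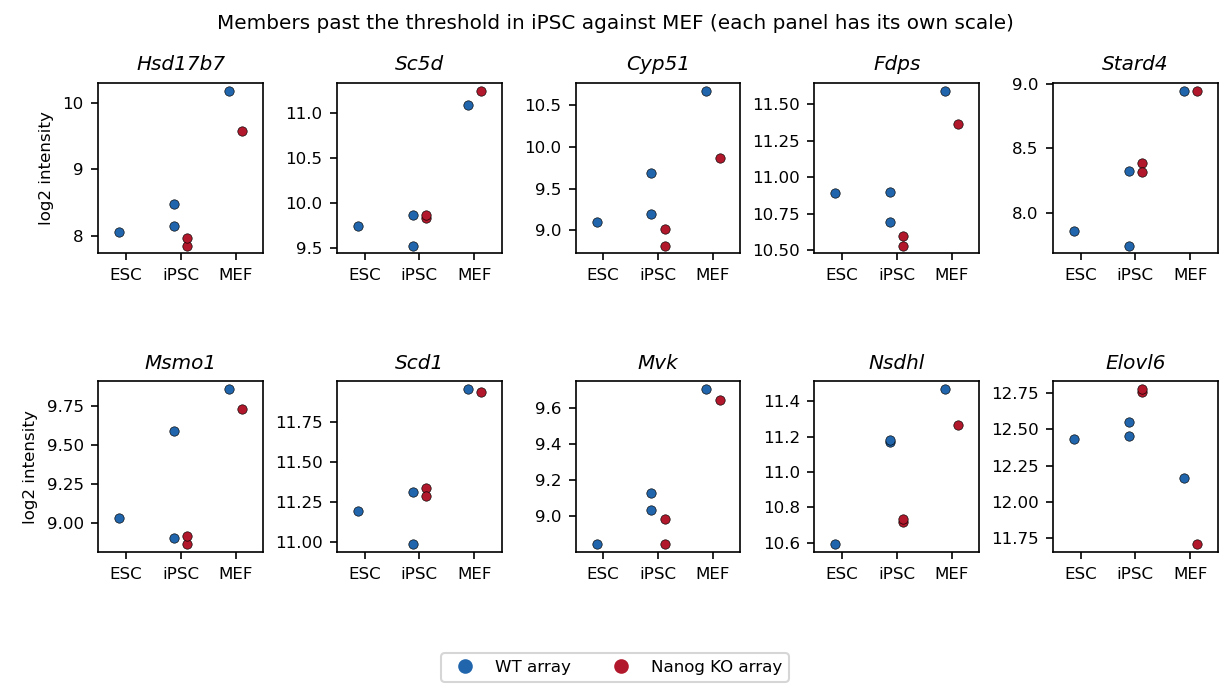
Log2 intensity (y axis, own scale per panel) of the 10 members that differed between iPSC and MEF, by cell type (x axis), with 1 point per array; blue is WT and red is Nanog KO. In 9 panels the MEF points lie above all iPSC and ESC points, and in that of Elovl6 below them.

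KO MEF and WT MEF are 1 array each, so their difference has no test. It ran from -0.81 to 0.54 over the members with a median of -0.02. Tm7sf2 (0.54) and Dhcr7 (0.50) were at least 0.5 higher in KO MEF, and Cyp51 (-0.81), Hsd17b7 (-0.61) and Fasn (-0.54) at least 0.5 lower, 5 of 25 members against 15.4% of all genes past 0.5 either way. All 5 fatty acid members were lower in KO MEF, from Scd1 at -0.02 to Fasn at -0.54. Over all 22180 genes, 11890 were lower and 10289 higher. Of 19 other measured genes of fatty acid synthesis and desaturation, a list described below, 12 were higher in KO MEF and 7 lower. Fibroblast markers were higher in KO MEF in 19 of 20, 9 of them by 0.5 or more, and their part in these differences was not tested.

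The interaction of genotype and cell type, which tests whether the KO minus WT difference differs between iPSC and MEF, called 0 of 25 members and 8.55% of all genes. At an unadjusted p under 0.05 there were 2, Dhcr7 and Elovl6, against 5662 of all 22180 genes. Dhcr7 was lower in KO iPSC and 0.50 higher on the KO MEF array, an interaction of -1.38 (SE 0.31, limma adjusted p = 0.0616). Elovl6 was at 0.72 (SE 0.15, adjusted p = 0.0543). Each MEF group, with 1 array, is assumed to vary like the iPSC groups. With trended, robust moderation both passed.

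In 5 neighbouring parts of lipid metabolism, 6 of 53 measured genes (63 named) rose and 8 fell in KO iPSC against WT pluripotent cells. That is 26.4%, beside 15.7% of all genes, 23.0% of those above background and 4.0% of the members; the difference between the lists was not tested. Against WT iPSC 7 rose and 9 fell, which is 30.2%, beside 16.5% of all genes and 23.8% of those above background. In iPSC against MEF 5 were higher and 17 lower, which is 41.5%, beside 30.7% of all genes and 44.5% of those above background.

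The largest difference of these genes in KO iPSC against WT pluripotent cells was that of Fads2, the desaturase that starts the making of long polyunsaturated fatty acids. It read 9.43 and 9.71 in KO iPSC, 12.00 in ESC, 12.00 and 12.01 in WT iPSC 1 and 2, and 12.58 and 12.56 in WT and KO MEF. The KO iPSC arrays stood apart from all 5 others. The difference from WT pluripotent cells was -2.43 (SE 0.11, limma adjusted p = 0.000419), 5.39-fold lower, and the interaction with cell type was -2.41 (adjusted p = 0.00816). Fads1, the partner desaturase, read 10.40 and 10.46 in KO iPSC against 10.98 to 11.14 in WT, by -0.64 (SE 0.09, adjusted p = 0.00827). Mid1ip1, an activator of acetyl-CoA carboxylase on the X chromosome, differed by -0.65 (SE 0.13, limma adjusted p = 0.0287). The 445 X-linked genes above background had a median difference of -0.21 in this comparison, with 67.9% below zero. The part of that shift in the difference of Mid1ip1 was not tested. Fads2, Fads1 and Mid1ip1 were 3 of 19 measured genes of fatty acid synthesis and desaturation, and 0 rose. That is 15.8%, beside 15.7% of all genes and 23.0% of those above background.

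Fatty acid oxidation had 4 of 14 measured genes higher and 1 lower in KO iPSC. That is 35.7%, beside 15.7% of all genes and 23.0% of those above background. Cpt1a, which commits fatty acids to entry into mitochondria, read 11.34 and 11.39 in KO iPSC against 10.77 in ESC and 10.04 and 10.50 in WT iPSC, higher by 0.93 (SE 0.21, limma adjusted p = 0.038). Acadvl (0.59) and Acaa2 (0.51), enzymes of the oxidation spiral, rose too, while Cpt2, the inner membrane transferase, fell (-0.89, adjusted p = 0.00624). The fourth gene that rose was Acads (0.42).

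Among genes of sterol uptake, trafficking and efflux, 2 of 10 rose and 2 fell. That is 40.0%, beside 15.7% of all genes and 23.0% of those above background. Npc2 (0.65, limma adjusted p = 0.0088) and Stard3 (0.58, adjusted p = 0.0104), which handle cholesterol in late endosomes, rose. The exporter Abcg1 (-1.01, adjusted p = 0.0376) and the lipoprotein receptor Scarb1 (-0.73, adjusted p = 0.0131) fell. On the WT and KO MEF arrays, Npc2 read 11.10 and 11.66, Stard3 8.43 and 8.39, Abcg1 8.41 and 8.21, and Scarb1 10.50 and 9.80. Of 4 other sterol and isoprenoid enzymes, Ggps1, which makes geranylgeranyl diphosphate, fell from 9.60 to 9.84 in WT to 9.05 and 9.08 in KO iPSC (-0.67, adjusted p = 0.0107). Of 6 genes of SREBP processing, 1 fell: Mbtps2, the X-linked protease that makes the second cleavage of SREBPs (-0.50, limma adjusted p = 0.0324). Ggps1 is 25.0% of its list and Mbtps2 16.7%, beside the same shares of all genes and of those above background. X-linked genes had a median difference of -0.21 in this comparison, and the part of that shift in the difference of Mbtps2 was not tested.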

How the data were processed

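RNA of 7 samples was measured on 1 array each. The authors deposited probe set intensity values on a linear scale, from 9.67 to 13043. Per the submitters' processing notes, RMA was run in Affymetrix Expression Console 1.3.0.187. The log2 was taken here, with no further normalization. The platform annotation gives 23521 of 33649 probe sets 1 symbol; those with several (1814) or not listed (8314) stayed out. The probe set with the highest mean stood for a gene (1082 genes had several), which gave 22180 genes. Tests were limma 3.58.1 lmFit and eBayes in R 4.3.3, two-sided, checked on simulated data. KO iPSC were fitted against the 3 WT pluripotent arrays, iPSC against MEF with genotype as a term, and the other comparisons on all 7 arrays. No column lacked a sample (0 unmapped). The number of arrays limits the precision; an array has no read depth.

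The members and lists were chosen with earlier results of these data known, and the promoter motifs after the tests. Named with all array values are members past the threshold in either KO iPSC comparison, and Srebf1, Srebf2, Insig1, Hmgcs1, Fdft1, Sqle, Cyp51, Fasn and Scd1; elsewhere, up to 10 members past the threshold, and up to 4 genes per pathway list. Elovl6, Ebp and the members 0.5 or more apart between 2 arrays were named after their values were seen. Alternatives were median centring, quantile normalization, trended robust moderation, no dim genes, mean probe sets, a replicate block, leaving out arrays, the KO arrays as 1 and the iPSC arrays alone.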

Additional observations from a re-analysis of the deposited data

How the results depend on the processing

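Counts of changed members are given, with the as-deposited count first. In KO iPSC against WT pluripotent cells, 0 rose, but 3 did after quantile normalization (Elovl6, Sqle, Srebf1) and 2 with trended, robust moderation (Elovl6, Sqle); 1 fell, but 0 with the KO arrays counted as 1. Leaving out 1 array gave 0 to 2 higher and 0 to 3 lower. In KO iPSC against WT iPSC, 0 rose (1, Elovl6, with trended, robust moderation; 0 to 4 leaving out 1 array) and 3 fell (0 to 9). With the replicate number as a block 1 of these 3, Dhcr7, fell; Nsdhl was at adjusted p = 0.0503 and Fasn at 0.0664. The replicate differences of WT and KO iPSC correlated by r = 0.0166 over genes. Whether arrays of the same replicate number share a batch was not tested. ESC against WT iPSC gave 0 lower (0 to 3 leaving out 1 array; without WT iPSC 1, Ebp, Hmgcs1 and Nsdhl, and without WT iPSC 2, Ebp and Nsdhl). In iPSC against MEF, 1 was higher (0 with the block, 0 to 1 leaving out 1 array), and 9 lower, 6 with the block and 6 to 10 leaving out 1 array. The interaction, 0, was 1 after quantile normalization (Elovl6), 2 with trended, robust moderation, 1 with the block (Dhcr7) and 0 to 5 leaving out 1 array; without WT iPSC 1 these were Dhcr7, Elovl6, Lss and Msmo1, and without WT iPSC 2 Dhcr7, Ebp, Elovl6, Sqle and Stard4. The cause of these changes was not tested, and the fits that leave 1 out also have fewer arrays. Of the named members changed in the KO iPSC comparisons or in iPSC against MEF, none changed its sign in that comparison under any of these settings. Hmgcs1 against WT iPSC was 0.50 without WT iPSC 2, where it was called, and -0.25 without WT iPSC 1. Insig1 was -0.53 without WT iPSC 1, where it was called, and 0.11 without WT iPSC 2. Over all genes, the number called was 3483 against WT pluripotent cells (2309 with the block, 365 with the KO arrays as 1, 341 to 4167 leaving out 1 array), 3656 against WT iPSC (519 to 5979), 36 in ESC against WT iPSC (22 without dim genes, 95 with trended, robust moderation, 6 with the block, 1 to 2289), 6802 in iPSC against MEF (4405 to 7967) and 1897 in the interaction (89 to 5016).

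Dhcr7 in KO iPSC ran from -1.04 to -0.79 against WT pluripotent cells and from -1.12 to -0.62 against WT iPSC. Over named members, 123 of 132 values against WT pluripotent cells, 96 of 110 against WT iPSC and 97 of 120 in iPSC against MEF kept their side of the threshold; among these, 9 uncalled values in the first 2 comparisons changed sign. The iPSC arrays alone give the same fit against WT iPSC by construction and were not counted. Averaging probe sets and leaving out dim genes were counted, although they leave each member's own values unchanged. Those 2 settings could move only the shared estimate of spread and the adjustment of p, so the kept shares are partly fixed in advance. Median centring moved the median of all genes in the interaction from 0.04 to 0.12, and by less in the other comparisons. Members lay above background on every array. Whether nearness to background narrowed the differences of dimmer members, such as Pmvk at 7.63 to 8.09, was not tested. The limits are the 2 arrays per iPSC group, the single ESC and MEF arrays, media that the labels do not assign to samples, and 1 probe set per member.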
